A study of Mus musculus with 68 samples.

Results

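Cholesterol and fatty acids are built from acetyl-CoA by enzymes whose genes are switched on together in many cells. The genes described here come from a list of 35 named genes of these pathways and of their control, and those with a probe set annotated to that symbol alone were taken. These were 30 of the 35, among 30141 genes in all. Srebf1, Scd2, Tm7sf2, Msmo1 and Acat2 had no probe set of their own and are not analysed here. Where a gene had several probe sets, as Scd1 did, the one with the highest mean over all arrays was used.

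RNA was taken from the uterus of ovariectomized mice and measured on 68 Affymetrix arrays in 25 groups, of which 18 held 3 arrays and 7 held 2. Mice received saline as the vehicle, 250 ng oestradiol (E2) or insulin-like growth factor 1 (IGF1), and tissue was collected 2 h or 24 h later, for vehicle only at 24 h. IGF1 was given as a 50 ug injection or from an implanted pump filled at 0.5 mg/ml, and the labels do not say which mice had which. The title of the series asks what oestrogen receptor alpha (ERα) does in the uterine response to IGF1. There were 3 mouse sets, each with its own vehicle, E2 and IGF1 arrays at both times. The first was wild-type C57Bl6 mice from a commercial breeder (14 arrays). The second was the Ex3aERKO line, null for Esr1, the gene of ERα (11 arrays), with its wild-type littermates (14 arrays). The last was the ERaUtcKO line, in which a floxed Esr1 allele is deleted by Cre made from the progesterone receptor gene, so that deletion reaches only cells that have used that promoter (15 arrays), with its wild-type littermates (14 arrays). The ages of the mice are not given in the sources used here. Nothing in the labels says that replicates came from separate animals, so p-values measure only the spread between these samples, which may be technical. In the groups of 2 the authors had dropped an outlier by principal component analysis, and the spread there may be understated.

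As background, cholesterol synthesis runs from acetyl-CoA through mevalonate and farnesyl diphosphate to squalene, which is closed into a ring and trimmed to cholesterol. The transcription factor SREBP-2, the product of Srebf2, drives most of these genes: Scap escorts it out of the endoplasmic reticulum when sterols are low, and Insig proteins hold it back when sterols are high. When sterols are plentiful the liver X receptors (LXR) instead raise the exporters Abca1 and Abcg1 and Mylip, an E3 ligase that degrades lipoprotein receptors. In the ovariectomized uterus E2 is known to act through ERα to make the epithelium divide, and IGF1 is a known mediator of that growth.

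The start regions of 4 sterol genes are shown, chosen after their values were seen. In wild types all 4 genes rose under IGF1 at both times and at 24 h of E2. At 2 h of E2 all but Nsdhl rose. They come from RefSeq (GRCm38.p6), each running from 250 bases before to 50 after the annotated start and written 5′ to 3′ along the gene. Capitals mark matches on either strand to TCACNCCAC, a form of the sterol regulatory element, and to CCAAT, the box bound by NF-Y. Hmgcs1 encodes the synthase before mevalonate, Idi1 the isomerase that makes the second isoprene unit, Cyp51 the sterol 14-demethylase and Nsdhl a later sterol dehydrogenase. Their windows lie at chr13:119690101-119690400 on the plus strand, chr13:8885356-8885655 on the plus strand, chr5:4104648-4104947 on the minus strand and chrX:72918271-72918570 on the plus strand.
Hmgcs1: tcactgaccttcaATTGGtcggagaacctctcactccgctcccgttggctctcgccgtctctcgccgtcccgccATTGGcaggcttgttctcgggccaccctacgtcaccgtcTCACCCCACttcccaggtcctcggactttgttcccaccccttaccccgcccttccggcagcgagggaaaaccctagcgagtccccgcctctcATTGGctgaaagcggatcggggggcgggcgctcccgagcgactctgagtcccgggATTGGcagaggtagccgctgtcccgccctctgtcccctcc
Idi1: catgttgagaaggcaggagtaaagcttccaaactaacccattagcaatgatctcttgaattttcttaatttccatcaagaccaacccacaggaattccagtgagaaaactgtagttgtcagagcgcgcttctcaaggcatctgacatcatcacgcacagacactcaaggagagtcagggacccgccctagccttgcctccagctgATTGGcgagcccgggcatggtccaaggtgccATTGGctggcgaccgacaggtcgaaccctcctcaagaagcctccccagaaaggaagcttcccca
Cyp51: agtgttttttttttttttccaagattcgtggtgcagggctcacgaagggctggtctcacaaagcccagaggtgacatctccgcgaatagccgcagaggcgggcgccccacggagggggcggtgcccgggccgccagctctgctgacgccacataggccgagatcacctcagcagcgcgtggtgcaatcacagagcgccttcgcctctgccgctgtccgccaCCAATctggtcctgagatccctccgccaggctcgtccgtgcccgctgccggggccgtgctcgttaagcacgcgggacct
Nsdhl: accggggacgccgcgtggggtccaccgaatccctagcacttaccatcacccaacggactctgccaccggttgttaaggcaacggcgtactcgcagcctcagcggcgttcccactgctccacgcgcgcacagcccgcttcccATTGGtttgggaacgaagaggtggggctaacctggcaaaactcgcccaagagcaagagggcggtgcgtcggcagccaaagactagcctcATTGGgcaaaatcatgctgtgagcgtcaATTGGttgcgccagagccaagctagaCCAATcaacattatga

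Windows were read for 23 of the 30 genes, 29 windows in all, and not for Fdps, Fdft1, Sqle, Scd1, Abcg1, Stard4 or Npc1. CCAAT was present in 19 of the 29 windows and in at least 1 window of 19 of the 23 genes, against 37.4% of all 32851 RefSeq windows of the same length. TCACNCCAC was present in 1 of the 29 windows, that of Hmgcs1, and in 1.24% of all windows. In Hmgcs1 it began at position -137 from the start. GGGCGG, the GC box, was in 21 of the 29 windows against 35.7% of all, and CACGTG, the E-box, in 7 against 7.15%. No window held the direct-repeat LXR element or the palindromic oestrogen response element, each searched as a single consensus on both strands, and 0.0152% and 0.07% of all windows hold them. A match to these letters is a description of the window and not a bound site.

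Values are the deposited log2 intensities, and a difference of 1 is a doubling. A gene is said to have risen or fallen where its difference from vehicle, tested with limma, had a Benjamini-Hochberg adjusted p under 0.05 over the 30141 genes, and errors are standard errors (SE). Levels of different genes are not compared, since each probe set has its own brightness. Array medians ran from 6.43 to 6.60 in the C57Bl6 set, from 5.82 to 6.15 in the Ex3aERKO set and from 6.26 to 6.62 in the ERaUtcKO set, so differences were taken within a set. The 30 genes lay above the background control probe sets, whose medians were 4.31, 3.46 and 3.65 in the 3 sets, with a lowest mean of 6.90 (Hsd17b7). Esr1 checked the labels of the knockouts. It read, under vehicle, 12.43 and 12.73 in Ex3aERKO littermates and 10.08 and 10.29 in Ex3aERKO mice, a fall by 2.39 ± 0.19 (limma adjusted p = 1.80e-06). It read 12.17, 12.24 and 12.25 in ERaUtcKO littermates and 10.86, 11.09 and 11.10 in ERaUtcKO mice, a fall by 1.21 ± 0.11 (limma adjusted p = 3.66e-07). Arrays give no depth, and their number limits the precision. Because these are bulk samples, fewer cells of a type and less RNA per cell cannot be told apart.

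In wild-type uterus IGF1 raised cholesterol synthesis genes by 2 h, and E2 raised them further but later. Over the 42 wild-type arrays, IGF1 at 2 h raised 20 of the 30 genes and lowered 4, where 16.9% of all genes rose and 19% fell. E2 at 2 h raised 10 and lowered 7 (17.2% and 22.8% of all genes). At 24 h E2 raised 21 and lowered 5 (24.5% and 31.7% of all genes), and IGF1 raised 20 and lowered 4 (19.3% and 21.6%). The median difference over the 30 genes was 0.59 for IGF1 and 0.15 for E2 at 2 h, and 0.76 and 1.48 at 24 h. Over all genes these medians lay between -0.07 and -0.04. Without the C57Bl6 set, a choice made after the data were seen, E2 at 2 h moved 11 genes in place of 17. The comparisons share their vehicle arrays, and each 2 h comparison also spans the time between 2 h and the 24 h vehicle.

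Marker genes of other cell types moved on the same arrays. Of 10 hepatocyte genes 9 were measured, and all 9 were lower after 2 h and 24 h of E2 and 2 h of IGF1, and 8 after 24 h of IGF1. Their mean ran from 9.57 to 11.90 under vehicle in the C57Bl6 mice, from 6.28 to 6.57 after 2 h of IGF1 and from 6.67 to 6.86 after 24 h of E2. In the ERaUtcKO littermates it ran from 6.66 to 8.83 under vehicle and from 6.19 to 7.02 over the 4 treatments, and in the Ex3aERKO littermates it stayed between 5.11 and 5.41 on every array. With this mean as a model term, E2 raised 10 and lowered 6 of the 30 genes at 2 h and raised 22 and lowered 5 at 24 h, and IGF1 raised 18 and lowered 3 at 2 h and raised 21 and lowered 3 at 24 h. All 5 measured stromal markers of 6 were lower after 2 h of E2, with group means of 13.72 under vehicle and 12.07 after E2 in the C57Bl6 mice. Of 8 epithelial markers 7 were higher after 24 h of E2, with group means of 10.39 and 12.19. All 5 measured proliferation genes of 6 were higher after 24 h of E2 and of IGF1, with group means of 9.11, 12.03 and 10.71. All 6 smooth muscle markers were also higher at 24 h of either hormone. The part of the stromal, epithelial, muscle and proliferation genes in the responses was not tested.

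**Figure D1:**
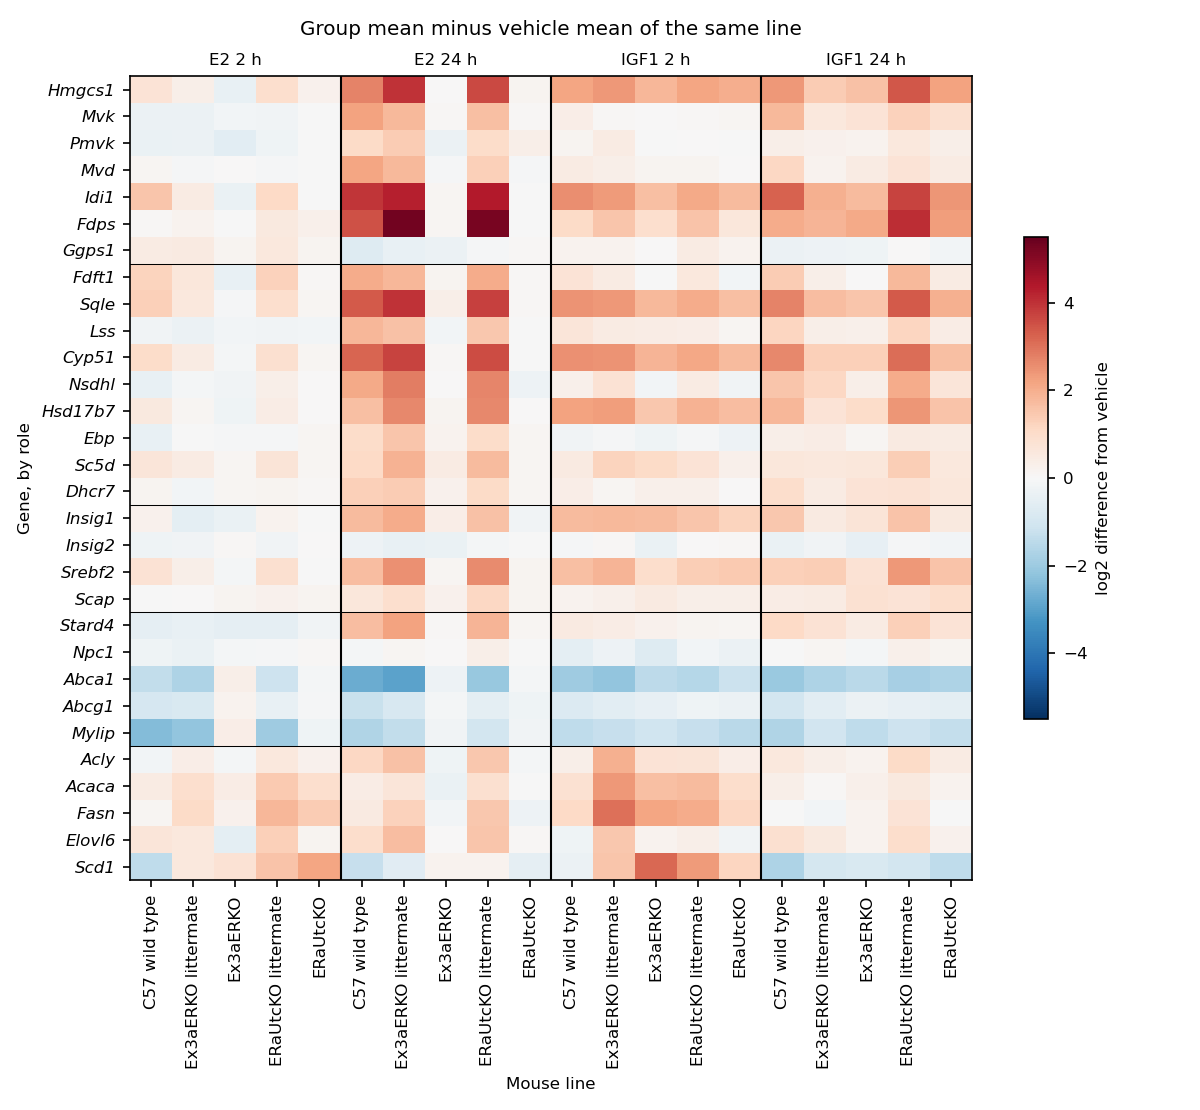
Colour map of the 30 genes (rows, by role) in the 5 mouse lines under 4 treatments (columns); colour gives the group mean minus the vehicle mean of the same line on the log2 scale. Hmgcs1, Idi1, Sqle and Cyp51 are red in every IGF1 column, and in the E2 24 h block they are red in the 3 wild-type columns and near white in the knockout columns; Fdps reached 4.67 over vehicle in the wild-type model.

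The sterol enzymes show this most plainly. Sqle, squalene epoxidase, read 7.77, 7.84 and 7.92 under vehicle in the C57Bl6 mice and 10.15 and 10.52 after 2 h of IGF1. After 2 h of E2 it read 8.99, 9.10 and 9.35, and after 24 h of E2 11.22, 11.23 and 11.26. After 24 h of IGF1 it read 10.41, 10.61 and 10.69. The 5 groups did not overlap, except that the 2 IGF1 groups did. Over all 3 sets Sqle rose by 2.37 ± 0.23 under IGF1 at 2 h (limma adjusted p = 3.08e-11) and by 0.96 ± 0.21 under E2 at 2 h (limma adjusted p = 2.54e-04). At 24 h it rose by 3.74 ± 0.21 under E2 (limma adjusted p = 5.33e-18) and by 2.61 ± 0.21 under IGF1 (limma adjusted p = 1.47e-12).

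Among the 7 genes of the mevalonate steps, IGF1 at 2 h raised 5 and lowered none. Idi1 and Hmgcs1 rose most among the 7, by 2.42 ± 0.25 and 2.29 ± 0.27 (limma adjusted p = 1.83e-10 and 4.51e-09), and Cyp51, from the later steps, rose by 2.45 ± 0.22 (limma adjusted p = 5.75e-12). Idi1 read 7.99, 8.17 and 8.58 under vehicle and 10.74 and 10.85 after IGF1 for 2 h in the C57Bl6 mice. In the littermates of the Ex3aERKO mice it read 6.17 and 6.27 under vehicle and 8.38, 8.49 and 8.87 after IGF1, and in those of the ERaUtcKO mice 6.82, 6.83 and 6.85 against 8.29 and 9.53. Every IGF1 array stood above every vehicle array of its set. Fdps, the synthase of farnesyl diphosphate, rose by 1.42 ± 0.29 (limma adjusted p = 1.30e-04). Mvk and Pmvk, the kinases that phosphorylate mevalonate, were at 0.20 ± 0.14 and 0.22 ± 0.10 and did not pass the test.

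E2 at 2 h raised 3 of these 7, namely Idi1 (1.06 ± 0.23), Hmgcs1 (0.69 ± 0.25) and Ggps1 (0.51 ± 0.08), whose enzyme draws farnesyl diphosphate off to geranylgeranyl diphosphate. Pmvk fell by 0.31 ± 0.09. By 24 h of E2 6 of the 7 had risen. The largest rise of any of the 30 genes was that of Fdps, 4.67 ± 0.27 or 25.5-fold (limma adjusted p = 1.24e-17), followed by Idi1 at 4.23 ± 0.23. In the C57Bl6 mice Fdps read 7.32, 7.46 and 7.56 under vehicle, 7.31, 7.55 and 7.73 after 2 h of E2 and 10.87, 10.90 and 11.04 after 24 h. The 2 h arrays overlapped the vehicle arrays, and the 24 h arrays stood far above both. Ggps1, the exception, fell by 0.40 ± 0.08 at 24 h of E2. It stood at -0.18 ± 0.08 at 24 h of IGF1, which did not pass, while the other 6 rose there.

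Of the 9 genes from squalene to cholesterol, 8 rose at 2 h of IGF1 and all 9 at 24 h of IGF1 and of E2, with none lower. Ebp, a sterol isomerase, was the gene that did not pass at 2 h (-0.13 ± 0.09). Hsd17b7, a sterol ketoreductase, rose by 2.20 ± 0.23 after IGF1 for 2 h. It read 6.65, 6.86 and 6.92 under vehicle and 8.76 and 9.28 after IGF1 for 2 h in the C57Bl6 mice, and 7.29, 7.36 and 7.37 after E2 for 2 h. E2 at 2 h raised 4 of the 9. Fdft1, squalene synthase, rose by 1.08 ± 0.14 (limma adjusted p = 2.80e-08), with Sqle, Cyp51 and Sc5d. Fdft1 was also the gene of this group that read higher after E2 than after IGF1 at 2 h, by 0.42 ± 0.15 (limma adjusted p = 0.0321). Nsdhl, Lss (which closes the ring) and Dhcr7 (the reductase that makes cholesterol) stood at -0.06 ± 0.16, -0.21 ± 0.11 and 0.05 ± 0.09 after 2 h of E2. They rose by 2.53 ± 0.16, 1.65 ± 0.11 and 1.26 ± 0.09 after 24 h.

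Of the 4 regulators measured, Srebf2 rose in all 4 comparisons: by 1.68 ± 0.19 at 2 h and 1.68 ± 0.18 at 24 h of IGF1, and by 0.67 ± 0.18 and 2.27 ± 0.18 under E2. Insig1, which restrains SREBP and is itself an SREBP target, behaved differently under the hormones at 2 h. In the C57Bl6 mice it read 9.61, 9.94 and 10.44 under vehicle, 11.62 and 11.86 after IGF1 for 2 h, and 9.94, 10.15 and 10.64 after E2 for 2 h. The E2 arrays overlapped the vehicle arrays and the IGF1 arrays did not. Insig1 rose by 1.75 ± 0.21 under IGF1 (limma adjusted p = 7.84e-09) and stood at -0.01 ± 0.20 under E2 (limma adjusted p = 0.969). At 24 h it rose under both, by 1.22 ± 0.20 and 1.81 ± 0.20. Scap rose by 0.28 ± 0.07 at 2 h of IGF1, and by 0.53 ± 0.06 and 0.89 ± 0.06 at 24 h of IGF1 and E2. Insig2, the other Insig gene, fell by 0.26 ± 0.06 at 24 h of E2.

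Abca1, Abcg1 and Mylip, the LXR-linked genes of export and receptor turnover, fell in all 4 comparisons. Abca1, the exporter that loads cholesterol onto apolipoproteins, read 12.54, 12.70 and 12.79 under vehicle in the C57Bl6 mice. It read 11.27, 11.32 and 11.43 at 2 h and 9.93, 9.94 and 9.99 at 24 h of E2, and 10.68 and 10.78 at 2 h and 10.19, 10.56 and 11.10 at 24 h of IGF1. No treated array reached a vehicle array. Over all sets Abca1 fell by 1.37 ± 0.14 and 2.57 ± 0.14 under E2 (limma adjusted p = 9.78e-11 and 1.82e-18), and by 1.90 ± 0.15 and 1.84 ± 0.14 under IGF1 (limma adjusted p = 2.10e-13 and 3.73e-13). Abcg1, a second exporter, fell by 0.54 to 0.88 in the same comparisons. Mylip had the largest change of the 30 genes at 2 h of E2, a fall by 2.18 ± 0.10 (limma adjusted p = 1.51e-20). In the C57Bl6 mice it read 12.45, 12.70 and 12.71 under vehicle and 10.10, 10.23 and 10.39 after E2 for 2 h. At 24 h of E2 it read 10.92, 11.01 and 11.01, above the 2 h arrays and below vehicle, and the fall over all sets was then by 1.34 ± 0.10. Of the other genes for handling cholesterol, Stard4, a carrier of free cholesterol, fell by 0.45 ± 0.11 at 2 h of E2 and rose by 1.91 ± 0.11 at 24 h. Npc1, which lets cholesterol out of lysosomes, fell by 0.21 ± 0.07 and 0.31 ± 0.08 at 2 h of E2 and IGF1 and did not pass at 24 h.

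**Figure D2:**
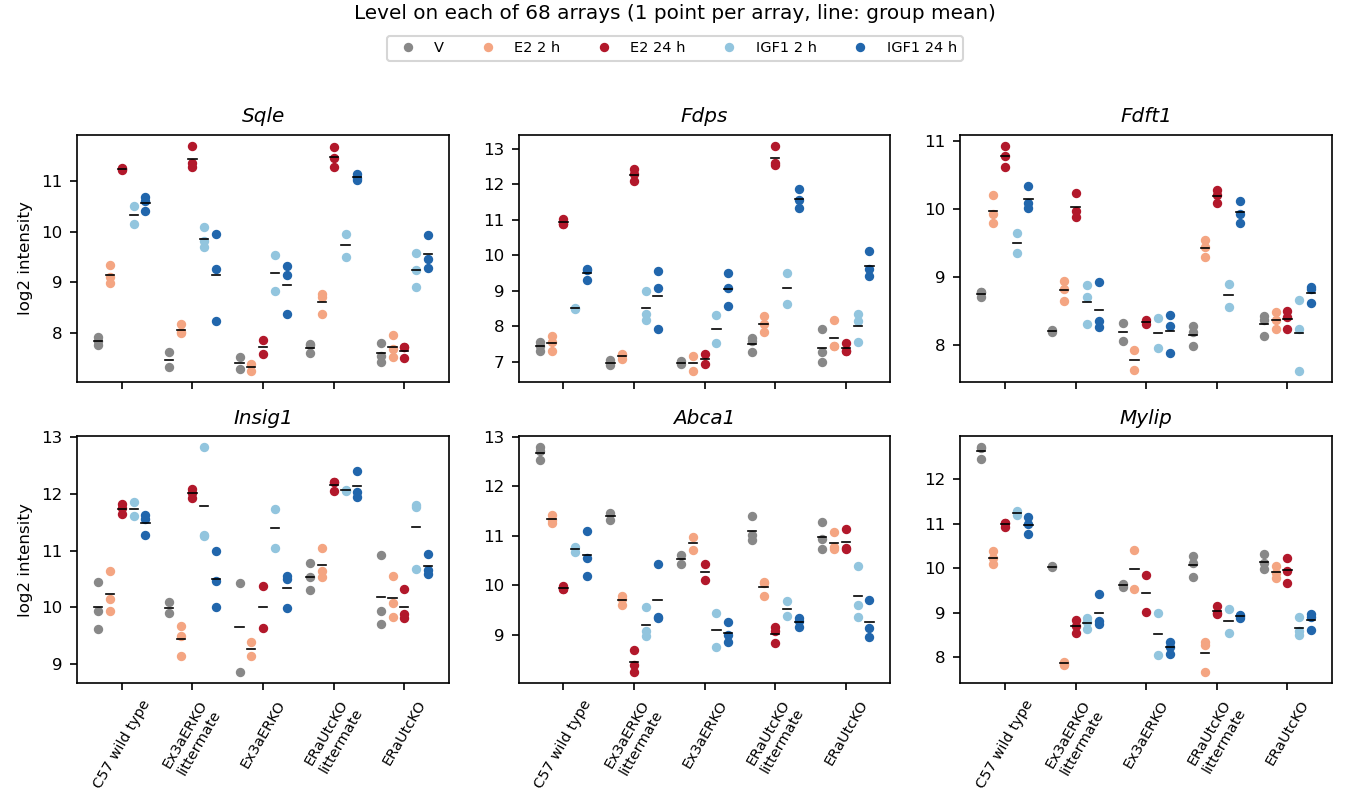
Each point is 1 array and each short line a group mean; the vertical axis is log2 intensity, the horizontal axis the 5 lines of mice, and colour the treatment, for Sqle, Fdps, Fdft1, Insig1, Abca1 and Mylip, chosen after their values were seen. In the ERaUtcKO littermates Sqle reads 11.02 to 11.15 after 24 h of IGF1 and in the knockouts 9.29 to 9.95.

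The same order appeared when the hormones were set against each other. At 2 h 17 of the 30 genes were lower after E2 than after IGF1 and 3 were higher, where 12.4% of all genes were lower and 9.61% higher. The largest gaps were those of Hsd17b7 (-1.83 ± 0.22), Insig1 (-1.76 ± 0.21), Cyp51 (-1.64 ± 0.21), Hmgcs1 (-1.60 ± 0.26), Sqle (-1.41 ± 0.22) and Idi1 (-1.36 ± 0.24), with limma adjusted p from 5.61e-09 to 2.51e-05. Abca1 was higher after E2 by 0.54 ± 0.15. At 24 h 19 were higher after E2 and 2 lower (15.3% and 12.9% of all genes). Fdps led with 2.00 ± 0.27 (limma adjusted p = 1.19e-07), then Idi1 (1.23 ± 0.23), Cyp51 (1.14 ± 0.20) and Sqle (1.12 ± 0.21), and Insig1 was higher by 0.60 ± 0.19, which did not pass without replicate 2 of the Ex3aERKO littermate 24 h IGF1 arrays (0.47). Abca1 was lower by 0.72 ± 0.14. None of the 5 fatty acid genes passed in either comparison. At 2 h Elovl6 passed, higher after E2 by 0.68 ± 0.19 (limma adjusted p = 0.00729), without replicate 2 of the Ex3aERKO littermate IGF1 arrays, and Fasn passed (-1.50) without replicate 2 of the ERaUtcKO littermate E2 arrays. With the mean of the adipocyte markers as a model term, a choice made after the data were seen, Fasn, Scd1, Acaca and Acly were lower after E2 at 2 h (limma adjusted p from 0.0169 to 0.0479), and Fasn, Scd1 and Acly were higher after E2 at 24 h (limma adjusted p from 0.00302 to 0.0137). Without the C57Bl6 set 13 genes differed at 2 h, all lower after E2.

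Between 2 h and 24 h of E2 22 genes rose and 2 fell (27.1% and 24.1% of all genes). Fdps rose by 4.40 ± 0.27 and Idi1 by 3.17 ± 0.23. Abca1 fell by 1.20 ± 0.14 and Ggps1 by 0.91 ± 0.08. Between 2 h and 24 h of IGF1 11 rose and 6 fell (20.1% and 15.2% of all genes). Fdps, Mvk and Nsdhl rose by 1.25 ± 0.28, 1.03 ± 0.13 and 1.01 ± 0.16. Sqle, Cyp51 and Srebf2, already raised at 2 h, stood at 0.25 ± 0.22, -0.07 ± 0.21 and 0.00 ± 0.19 and did not pass. Insig1 fell by 0.53 ± 0.21, which did not pass without replicate 1 of either C57Bl6 IGF1 group (-0.53 each), replicate 2 of the Ex3aERKO littermate 2 h arrays (-0.32) or any of the Ex3aERKO littermate 24 h arrays (-0.54 to -0.40). The fatty acid genes Scd1, Fasn and Acaca fell by 2.43 ± 0.60, 1.97 ± 0.50 and 1.44 ± 0.35 between those times. With the adipocyte term these values were -0.61 ± 0.23 for Scd1 (limma adjusted p = 0.0399), -0.63 ± 0.31 for Fasn and -0.54 ± 0.25 for Acaca, and the last pair no longer passed (limma adjusted p = 0.127 and 0.0958). Without replicate 2 of the Ex3aERKO littermate 2 h arrays Fasn fell by 1.27 and Acaca by 0.90, both passed, and Elovl6 rose by 0.62 ± 0.19 (limma adjusted p = 0.00962).

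At 24 h of either hormone the genes from squalene to cholesterol kept their direction in each mouse set, and the size differed. At 2 h of E2 the direction could differ too. Nsdhl read 8.88 to 9.04 under vehicle and 8.45 to 8.77 after 2 h of E2 in C57Bl6 mice. In ERaUtcKO littermates it read 8.16 to 8.48 and 8.52 to 8.96. The set difference at 2 h of E2 was not tested. Beside the vehicle mean of the same set, the mean over the 30 genes at 24 h of E2 was 1.13 ± 0.04 in C57Bl6 mice (SD, n = 3), 1.54 ± 0.13 in Ex3aERKO littermates (SD, n = 3) and 1.55 ± 0.08 in ERaUtcKO littermates (SD, n = 3). At 24 h of IGF1 it was 0.77 ± 0.09, 0.41 ± 0.14 and 1.18 ± 0.07 (SD, n = 3 each). These SDs cover only the treated arrays and take the vehicle mean as fixed, so they understate the uncertainty of the differences. The vehicle arrays had SDs of 0.19 (n = 3), 0.01 (n = 2) and 0.07 (n = 3) in the same order. A test of whether the 24 h IGF1 response differed between the 3 sets passed for 11 genes, against 5.56% of all genes: Hmgcs1, Mvk, Mvd, Idi1, Fdps, Fdft1, Sqle, Lss, Cyp51, Hsd17b7 and Srebf2. The sets differ in array medians and background as well as in mice, and these cannot be told apart in a set difference. Fdps rose by 4.07 ± 0.27 in ERaUtcKO littermates, by 1.88 ± 0.36 in Ex3aERKO littermates and by 2.05 ± 0.11 in C57Bl6 mice (limma adjusted p of the set difference = 0.00127). Sqle rose by 3.37 ± 0.17, 1.68 ± 0.35 and 2.73 ± 0.11 in the same order. With only the vehicle and 24 h IGF1 groups in the model it passed for 1 gene. At 24 h of E2 the set difference passed for 8 genes, against 16.2% of all genes, and for 4 without replicate 1 of the C57Bl6 vehicle, replicate 3 of the C57Bl6 E2 or replicate 1 of the ERaUtcKO littermate vehicle arrays. It passed for 5 without replicate 2 of the C57Bl6 E2, replicate 2 of the ERaUtcKO littermate vehicle or replicate 1 of the ERaUtcKO littermate E2 arrays. At 2 h of IGF1 it passed for no gene in limma (1.14% of all genes). In each set on its own IGF1 at 24 h raised 21 of the 30 genes and lowered 6 in C57Bl6 mice, raised 9 and lowered 3 in Ex3aERKO littermates and raised 21 and lowered 3 in ERaUtcKO littermates. Of all genes 14.4%, 3.51% and 16.8% rose and 11.5%, 1.85% and 26.7% fell there. Without a test, 17 genes had every 24 h IGF1 array above every vehicle array in each of the 3 sets (8.87% of all genes did so) and 3 had every one below, namely Abca1, Abcg1 and Mylip (4.92% of all genes).

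**Figure D3:**
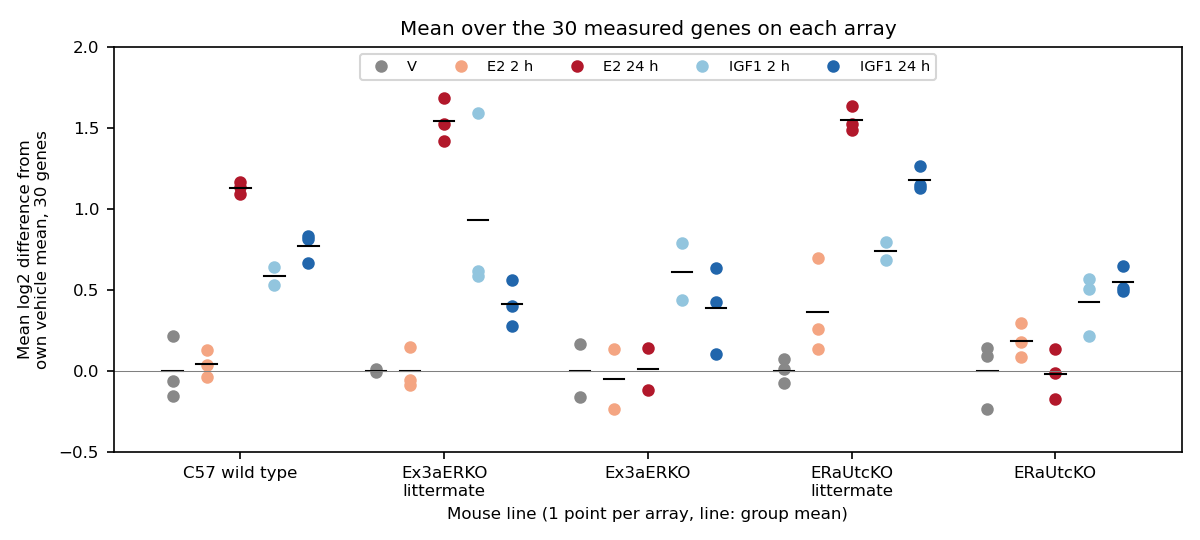
Mean of the 30 genes on each array, minus the vehicle mean of the same line (log2, vertical axis), by line (horizontal axis) and treatment (colour); each point is 1 array and each short line a group mean. After 24 h of E2 wild-type arrays lie at 1.09 to 1.68 and knockout arrays at -0.17 to 0.14; after 24 h of IGF1 ERaUtcKO littermates lie at 1.13 to 1.27 and ERaUtcKO mice at 0.49 to 0.64.

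With Esr1 disrupted, none of the 30 genes passed the test against vehicle under E2 in either line, which does not show that none moved. In Ex3aERKO mice no gene passed at 2 h or 24 h in limma (0.149% and 0% of all genes), and 1 had an unadjusted p under 0.05 at each time. In ERaUtcKO mice none passed at either time (0.491% and 0% of all genes), and again 1 had an unadjusted p under 0.05 at each time. At 2 h this was Acaca, at 0.94 ± 0.44 (limma adjusted p = 0.561). Fdps in ERaUtcKO mice read 6.99, 7.29 and 7.93 under vehicle and 7.30, 7.31 and 7.53 after 24 h of E2, inside the vehicle range. In their littermates it read 7.29, 7.60 and 7.66 against 12.56, 12.59 and 13.08.

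The loss of the E2 response was tested as an interaction, the difference from vehicle in a knockout line minus that in its littermates. At 24 h it passed for 20 genes in Ex3aERKO (18 negative and 2 positive, against 10.5% and 6.34% of all genes) and for 23 in ERaUtcKO (21 negative and 2 positive, against 15.5% and 17.3% of all genes). In Ex3aERKO it was -5.19 ± 0.53 for Fdps, -4.18 ± 0.54 for Idi1, -3.98 ± 0.60 for Hmgcs1, -3.66 ± 0.52 for Sqle and -3.66 ± 0.34 for Cyp51, and 2.69 ± 0.40 for Abca1. In ERaUtcKO the values were -5.25 ± 0.38, -4.39 ± 0.40, -3.45 ± 0.32, -3.70 ± 0.25 and -3.58 ± 0.29, and 1.97 ± 0.30 for Abca1. Insig1 passed in ERaUtcKO (-1.79 ± 0.39, limma adjusted p = 0.00129) and not in Ex3aERKO (-1.66 ± 0.66, limma adjusted p = 0.0929), a difference between the lines that was not tested. At 2 h the interaction passed for 4 genes in Ex3aERKO (9.43% of all genes), Mylip (2.54 ± 0.40), Abca1 (2.00 ± 0.40), Abcg1 (1.02 ± 0.20) and Fdft1 (-1.02 ± 0.31). The call of Fdft1 held only without replicate 2 of the littermate E2 arrays, of the 9 arrays left out in turn (-1.16 to -0.87 without the others). It passed for 5 in ERaUtcKO (13.8% of all genes), Mylip (1.75 ± 0.25), Abca1 (1.01 ± 0.30), Fdft1 (-1.23 ± 0.24), Srebf2 (-0.88 ± 0.27) and Sqle (-0.78 ± 0.25). The latter count was 3 without replicate 2 of the littermate vehicle, replicate 1 or 2 of the littermate E2, replicate 2 of the knockout vehicle or replicate 2 or 3 of the knockout E2 arrays, and 2 without replicate 3 of the knockout vehicle arrays. Mylip and Fdft1 passed with each of the 12 arrays left out, while Abca1, Srebf2 and Sqle did not pass without 5, 6 and 9 of them. The epithelial marker genes moved in the same samples: the mean of the list was 12.08 to 12.31 on the E2 24 h arrays of ERaUtcKO littermates and 9.40 to 9.85 under vehicle, and 10.08 to 10.26 and 9.61 to 10.13 in ERaUtcKO mice. Their part in these values was not tested.

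IGF1 still moved the pathway in both knockout lines. In Ex3aERKO mice at 2 h it raised 9 of the 30 genes and lowered 4, where 8.61% of all genes rose and 7.08% fell. Cyp51 read 7.42 and 7.61 under vehicle and 9.19 and 9.62 after IGF1, a rise by 1.89 ± 0.25 (limma adjusted p = 3.51e-05). Hmgcs1, Sqle, Insig1, Idi1 and Hsd17b7 rose by 1.83 ± 0.45, 1.78 ± 0.38, 1.75 ± 0.49, 1.63 ± 0.40 and 1.49 ± 0.24, and Abca1 fell by 1.43 ± 0.30. At 24 h it raised 11 and lowered 3 (11.7% and 6.86% of all genes). Fdps read 6.95 and 7.02 under vehicle and 8.58, 9.10 and 9.50 after IGF1, a rise by 2.08 ± 0.36 (limma adjusted p = 5.03e-04). Idi1, Hmgcs1 and Sqle rose by 1.72 ± 0.37, 1.62 ± 0.41 and 1.54 ± 0.35, while Abca1 and Mylip fell by 1.49 ± 0.27 and 1.39 ± 0.27. Insig1 stood at 0.70 ± 0.44 and did not pass. These counts rest on 2 vehicle arrays: without replicate 2 of the Ex3aERKO vehicle group the 2 h count was 4 and the 24 h count 8, without replicate 1 of the 2 h IGF1 group the former was 8, and with only the groups compared in the model they were 2 and 8. Without replicate 2 of the vehicle group Hmgcs1, Idi1 and Insig1 at 2 h (1.54, 1.61 and 0.96) and Hmgcs1 at 24 h (1.33) did not pass, and neither did the former 3 without replicate 1 of the 2 h IGF1 group (1.27, 1.22 and 1.40). A group left with 1 array was assumed to vary like the others.

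In ERaUtcKO mice IGF1 at 2 h raised 8 and lowered 3 (13.1% and 16.2% of all genes). Hmgcs1 rose by 2.00 ± 0.23, Idi1 by 1.74 ± 0.29, Cyp51 by 1.72 ± 0.21, Hsd17b7 by 1.68 ± 0.19, Sqle by 1.65 ± 0.17 and Insig1 by 1.23 ± 0.28. Mylip fell by 1.47 ± 0.18 and Abca1 by 1.20 ± 0.22. At 24 h it raised 17 and lowered 3 (16.9% and 15.5% of all genes), with all 9 genes from squalene to cholesterol among the rises. Idi1 rose by 2.44 ± 0.29, Fdps by 2.31 ± 0.27, Hmgcs1 by 2.23 ± 0.23, Sqle by 1.97 ± 0.17 and Cyp51 by 1.64 ± 0.21 (limma adjusted p from 1.68e-08 to 1.97e-06). Abca1 fell by 1.71 ± 0.22, and Insig1 stood at 0.54 ± 0.28 (limma adjusted p = 0.150).

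The rise at 24 h of IGF1 was smaller in ERaUtcKO mice than in their littermates for 4 genes of the squalene and sterol steps. These littermates had the strongest mean response to 24 h of IGF1 among the wild-type sets. Beside the vehicle mean of the same line, the mean over the genes analysed was 1.18 in these littermates. It was 0.55 in ERaUtcKO mice, between the 0.77 of C57Bl6 mice and the 0.41 of Ex3aERKO littermates. Whether ERaUtcKO mice differed from those other wild types was not tested. Sqle read 7.61, 7.76 and 7.78 under vehicle and 11.02, 11.07 and 11.15 after IGF1 in the littermates, and 7.43, 7.55 and 7.80 against 9.29, 9.47 and 9.95 in the knockouts. The vehicle arrays of the genotypes overlapped and the IGF1 arrays did not. The interaction for Sqle was -1.39 ± 0.25 (95% interval -1.90 to -0.88, limma adjusted p = 0.0334). Fdft1 read 9.80, 9.93 and 10.11 after IGF1 in the littermates and 8.61, 8.83 and 8.85 in the knockouts, from vehicle values of 7.98 to 8.27 and 8.13 to 8.43, an interaction of -1.35 ± 0.24 (limma adjusted p = 0.0334). Nsdhl read 10.25, 10.29 and 10.57 against 9.17, 9.44 and 9.56, although its vehicle arrays were slightly higher in the knockouts (8.62, 8.79 and 8.81 against 8.16, 8.36 and 8.48). Its interaction was -1.38 ± 0.23 (limma adjusted p = 0.0299). Lss read 7.81, 7.89 and 8.01 against 7.12, 7.34 and 7.36, an interaction of -0.78 ± 0.14 (limma adjusted p = 0.0334). Its vehicle arrays were also slightly higher in the knockouts (6.86, 6.87 and 6.87 against 6.67, 6.70 and 6.79).

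These 4 calls compare with 0.0498% of all genes called. The other genes leaned the same way without passing: the interaction was negative for 28 of the 30 genes (39.3% of all genes), with a median of -0.59 against 0.06 over all genes. Fdps stood at -1.76 ± 0.38 (limma adjusted p = 0.0782), Cyp51 at -1.45 ± 0.29 (0.0622), Idi1 at -1.26 ± 0.40 (0.265), Hmgcs1 at -1.17 ± 0.32 (0.192) and Insig1 at -1.05 ± 0.39 (0.330). Unadjusted p was under 0.05 for 15 genes, all negative, where 3.79% of all genes were so. Abca1 and Mylip, which fell under IGF1 in both genotypes, stood at 0.13 (95% interval -0.50 to 0.76) and -0.16 (-0.68 to 0.35). After 24 h of IGF1 18 of the 30 genes had every knockout array below every littermate array and none had every one above, where 9.46% and 10.9% of all genes did. Under vehicle the numbers were 1 and 4 (12.8% and 7.26% of all genes), and no gene passed the test between genotypes there (4.17% of all genes, and 1 gene with an unadjusted p under 0.05). The counts in this paragraph are descriptive and lend the calls no support. The gene list was chosen with earlier results of these data known, and its genes were read on the same arrays.

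The 4 calls lie near the threshold. Leaving out each of the 12 arrays in turn gave from 0 to 6 calls. There were 0 calls without replicate 1 or 2 of the littermate vehicle group, any of the 3 littermate IGF1 arrays, or replicate 2 or 3 of the knockout vehicle group. There were 2 without replicate 1 of the knockout vehicle group and 1 without replicate 3 of the knockout IGF1 group. Quantile normalization left 2. Hepatocyte marker genes varied in the same samples: 9 of the 10 listed were measured, and their mean was 6.66 to 8.83 under vehicle in the littermates and 7.70 to 10.56 in the knockouts, against 6.38 to 7.02 and 6.61 to 7.18 after 24 h of IGF1. With that mean as a model term the 4 interactions were -1.38 (Sqle), -1.34 (Nsdhl), -1.31 (Fdft1) and -0.79 (Lss) and none passed (limma adjusted p from 0.0573 to 0.0642). Proliferation genes also moved with the result, their mean being 9.32 to 9.56 after 24 h of IGF1 in the littermates and 7.19 to 8.46 in the knockouts, from 7.22 to 7.35 and 6.70 to 6.94 under vehicle. Their part in the result was not tested.

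**Figure D4:**
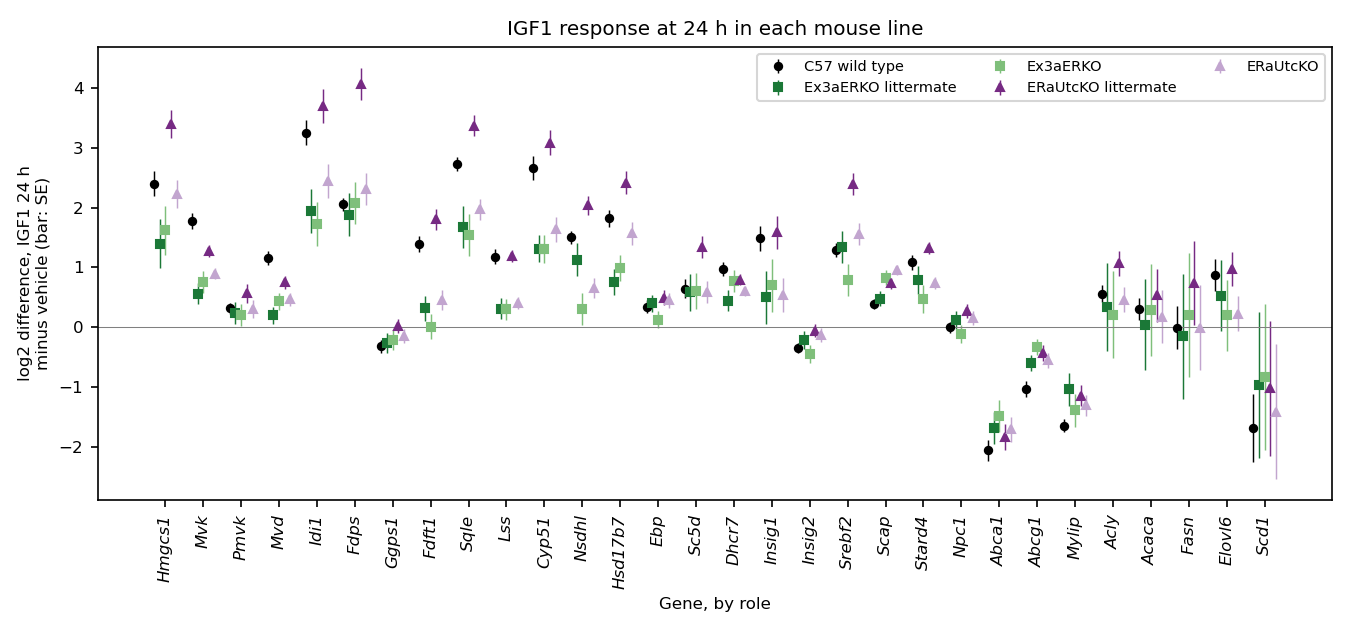
Difference from vehicle after 24 h of IGF1 (log2, vertical axis) with its SE for each of the 30 genes (horizontal axis, by role) in the 5 lines, by colour and shape. For Sqle the ERaUtcKO littermates stand at 3.37 and the knockouts at 1.97, while the Ex3aERKO littermates and knockouts stand at 1.68 and 1.54.

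In the Ex3aERKO line the same test passed for no gene at 24 h of IGF1 in limma (0.0133% of all genes; 1 gene of the 30 with an unadjusted p under 0.05), with a median interaction of 0.01. For Sqle it was -0.14, with a 95% interval of -1.17 to 0.90, which spans 0. Nsdhl stood at -0.82 (-1.63 to -0.01). The littermates of this line also had the weakest 24 h IGF1 response of the 3 wild-type sets. Sqle read 8.23, 9.26 and 9.95 on their IGF1 arrays and 8.38, 9.15 and 9.32 on those of the knockouts, which overlapped. The interaction of ERaUtcKO minus that of Ex3aERKO passed for no gene at 24 h in limma (0% of all genes), with 9 of the 30 genes lower at an unadjusted p under 0.05, where 2.29% of all genes were so. For Sqle this contrast was -1.25, with a 95% interval of -2.34 to -0.16 that leaves out 0 (limma adjusted p = 0.761). After adjustment a difference between the lines was not shown. At 2 h of IGF1 neither line had a called interaction in limma (0% of all genes in Ex3aERKO and 0.511% in ERaUtcKO; 3 genes of the 30 lower at an unadjusted p under 0.05 in each). In ERaUtcKO 1 gene passed without replicate 2 of the knockout 2 h IGF1 arrays. Under vehicle 1 gene differed between Ex3aERKO mice and littermates, Pmvk, higher by 0.98 ± 0.20 (limma adjusted p = 0.0106; 2.95% of all genes), on 2 arrays in each group. That call was lost without replicate 2 of either vehicle group or replicate 3 of the knockout one.

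The 5 fatty acid genes followed another course. Fasn, fatty acid synthase, rose by 2.15 ± 0.51 at 2 h of IGF1 in wild types (limma adjusted p = 8.11e-04) and stood at 0.17 ± 0.48 at 24 h. Acaca, which makes malonyl-CoA, rose by 1.73 ± 0.37 and 0.93 ± 0.34 at 2 h of IGF1 and E2. The latter did not pass without replicate 1 of the ERaUtcKO littermate vehicle (0.86) or replicate 2 of the ERaUtcKO littermate 2 h E2 arrays (0.70). Acly, which supplies acetyl-CoA, rose by 1.08 ± 0.34 at 2 h of IGF1 and by 1.39 ± 0.32 at 24 h of E2. The rises at 2 h of IGF1 were smaller without replicate 2 of the Ex3aERKO littermates, where Acly read 12.84 against 8.74 and 8.85 on the other arrays of the group. Without it Acly rose by 0.55 ± 0.15, Fasn by 1.47 ± 0.36 and Acaca by 1.20 ± 0.22 (limma adjusted p = 0.00277, 9.72e-04 and 1.69e-05). Elovl6, an elongase, rose by 0.83 ± 0.30 and 1.38 ± 0.30 at 2 h and 24 h of E2 and by 0.78 ± 0.30 at 24 h of IGF1. Scd1, the stearoyl-CoA desaturase, passed against vehicle in no comparison, with 1.19 ± 0.62 at 2 h and -1.25 ± 0.58 at 24 h of IGF1 and 0.23 ± 0.58 and -0.60 ± 0.58 under E2. No fatty acid gene passed in either knockout line after either hormone. With the adipocyte term 3 calls were made, all in ERaUtcKO mice under IGF1: Fasn (0.79 ± 0.28, limma adjusted p = 0.0367) and Acaca (0.77 ± 0.17, limma adjusted p = 0.00106) at 2 h, and Acly (0.54 ± 0.12, limma adjusted p = 0.00181) at 24 h.

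Arrays of 1 group differed widely for these genes. In Ex3aERKO littermates after 2 h of IGF1 Fasn read 10.79, 10.86 and 16.05, and Scd1 read 14.38, 14.70 and 17.95. In ERaUtcKO mice under vehicle Scd1 read 11.76, 14.89 and 15.59. Adipocyte markers varied alongside: 8 of the 10 listed were measured, and their mean ran from 7.51 to 10.79 in the former group and from 7.08 to 9.13 in the latter. With this mean as a model term, its slope passed for all 5 genes in the wild-type model (1.11% of all genes) and the ERaUtcKO model (0.544%), for 4 of the 5, not Elovl6, in the Ex3aERKO model (0.455%), and for none of the other 25 genes in any of the 3. In wild types the slope was 1.33 ± 0.08 for Scd1, 0.98 ± 0.10 for Fasn, 0.66 ± 0.08 for Acaca, 0.47 ± 0.10 for Acly and 0.41 ± 0.10 for Elovl6, in log2 units of the gene per unit of the marker mean. With the term, the difference of Fasn from vehicle at 24 h of E2 went from 1.07 to 1.96 ± 0.28 (limma adjusted p = 1.53e-07) and that at 24 h of IGF1 from 0.17 to 1.00 ± 0.28 (limma adjusted p = 0.00392). Scd1 at 24 h of E2 went from -0.60 to 0.61 ± 0.21 (limma adjusted p = 0.0137), so its direction depends on the term. The adipocyte term was chosen after the data were seen.

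**Figure D5:**
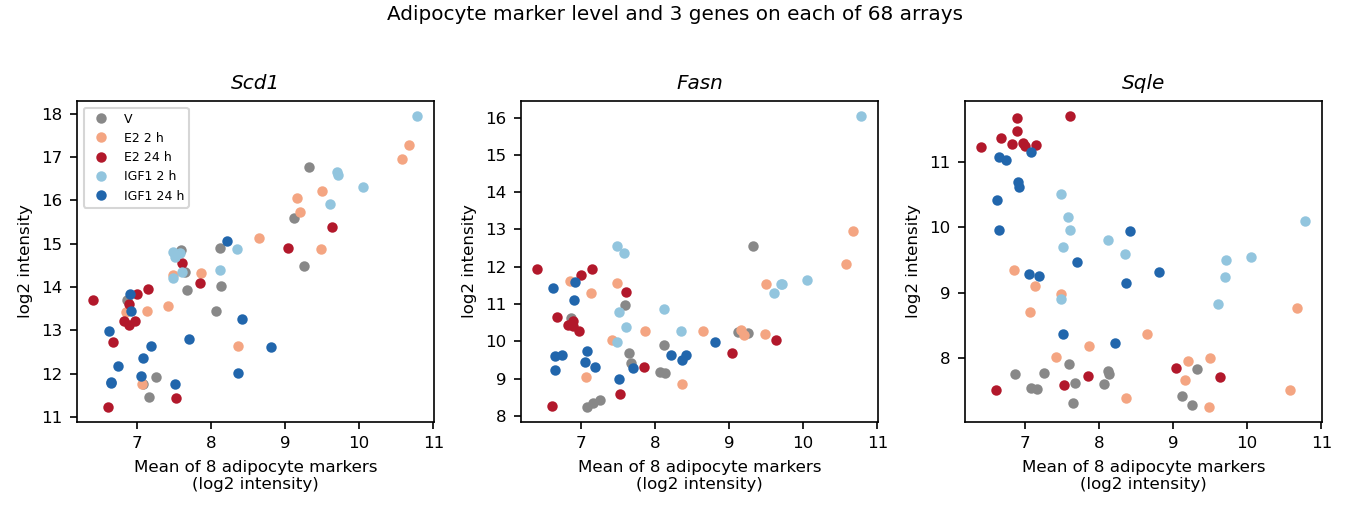
Log2 intensity of Scd1, Fasn and Sqle (vertical axes) against the mean of 8 adipocyte marker genes (horizontal axis, log2), 1 point an array, coloured by treatment. Scd1 and Fasn climb with the marker mean, with wild-type slopes of 1.33 and 0.98, and Sqle spreads across it.

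Other genes of lipid metabolism were counted in the same way from lists written with earlier results of these data known. Of 17 measured genes otherwise linked to SREBP, E2 at 24 h raised 11 and lowered 1, led by Tmem97, a sterol-binding membrane protein (2.20 ± 0.15), and Mlxipl (-0.43 ± 0.17). Of all genes 24.5% rose and 31.7% fell there. IGF1 raised 9 and lowered 1 at 2 h, led by Thrsp (1.83 ± 0.50) and Lpin1 (-0.64 ± 0.25), and raised 8 with none lower at 24 h, led by the desaturase Fads2 (1.73 ± 0.16). The shares of all genes raised and lowered were 16.9% and 19% at 2 h and 19.3% and 21.6% at 24 h. E2 at 2 h raised 4 and lowered 5, among them Mlxipl (1.23 ± 0.17) and Lpin1 (-0.88 ± 0.23). These counts lie near the shares of all genes (17.2% and 22.8%). In ERaUtcKO mice IGF1 at 24 h raised 6 and lowered 2, led by the elongase Elovl1 (1.99 ± 0.14), and in Ex3aERKO mice it raised 5, led by Fads2 (1.86 ± 0.25). Of all genes 16.9% rose and 15.5% fell in the former line, and 11.7% rose in the latter. None of the 17 passed the interaction test at 24 h of IGF1 in either line (0.0133% of all genes in Ex3aERKO and 0.0498% in ERaUtcKO). At 24 h of E2 6 and 8 passed in Ex3aERKO and ERaUtcKO, all negative, as were 10.5% and 15.5% of all genes.

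Genes of fatty acid oxidation, of which 13 were measured, were more often lower at 2 h and more often higher at 24 h. In wild types 9 rose and 2 fell at 24 h of E2 (24.5% and 31.7% of all genes). At 24 h of IGF1 9 rose and 1 fell (19.3% and 21.6% of all genes). The same shares stand beside the 24 h counts of the lists below. Hadha, of the mitochondrial trifunctional protein, rose by 1.14 ± 0.10 under E2, and Hadh by 1.07 ± 0.16 under IGF1. At 2 h 1 rose and 6 fell under E2 (17.2% and 22.8% of all genes), and 2 rose and 5 fell under IGF1 (16.9% and 19%). The coactivator gene Ppargc1a fell in all 4, by 2.67 ± 0.11 and 1.85 ± 0.12 at 2 h of E2 and IGF1 and by 1.50 ± 0.11 and 0.96 ± 0.11 at 24 h. Of 4 other LXR-linked genes, with the receptor gene Nr1h3 among them, Lpcat3, a phospholipid acyltransferase, rose by 1.19 ± 0.08 at 24 h of E2. The other 3 fell, led by Pltp (-0.65 ± 0.13). At 24 h of IGF1 Lpcat3 rose by 0.55 ± 0.08 and 2 fell, led by Smpdl3a, which fell by 1.00 ± 0.12. Of 10 genes of sterol transport and esterification 3 rose and 2 fell at 24 h of either hormone, shares near those of all genes, and Cyp27a1, the sterol 27-hydroxylase, fell by 1.17 ± 0.16 and 0.88 ± 0.16 under E2 and IGF1. Of 5 measured genes of SREBP processing 3 rose and none fell at 24 h of either, led by Erlin2 (0.99 ± 0.11 and 0.47 ± 0.11). Of 9 genes of other mevalonate branches 7 rose and 1 fell at 24 h of E2, led by Nus1 (0.73 ± 0.08), and 4 rose at 24 h of IGF1, led by the farnesyltransferase gene Fntb (0.47 ± 0.07).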

How the data were processed

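Uterine RNA was measured on Affymetrix arrays, with values on a log2 scale in the table the authors deposited (72688 probe sets, 1 column per array). For summarisation and normalization the method was not given in the sources used here. Of the probe sets, 32750 were annotated, 30604 to 1 gene symbol, 2146 to several (left out) and 39938 to none here. Symbols were updated through Entrez identifiers. The probe set with the highest mean over 68 arrays was kept for each gene, which left 30141 genes, with no filter on level. Promoter windows came from RefSeq (GRCm38.p6).

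Tests were two-sided and used limma 3.58.1 under R 4.3.3 (lmFit, eBayes), with Benjamini-Hochberg adjustment over the 30141 genes and a threshold of 0.05. Wild-type responses were estimated on 42 wild-type arrays, with terms for treatment and for the set of mice. Knockout responses and interactions came from the 25 arrays of the Ex3aERKO and the 29 of the ERaUtcKO experiment with 1 mean per group, the contrast between lines from the 54 arrays of both, and the set differences from F tests. The models were run on simulated data with independent normal noise for each gene. The simulation held no set effects, no correlation between genes and no variation of marker genes, so it cannot speak for those. Arrays give no depth.

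The members, their roles, the other gene lists and the tests were chosen with earlier results of these data known, and some lists and scripts were taken over from that earlier work. All 35 members may be named. Full statistics go to the 6 largest called differences of a comparison and to Idi1, Sqle, Insig1, Abca1, Fasn and Scd1 (and Srebf1 and Scd2, which are not analysed here), and Esr1 checks the knockouts. Of the other lists, counts and the largest called gene in each direction are given. Alternatives were median centring, quantile normalization, the dimmest genes left out, the mean of a gene's probe sets, trend and robust variances, only the groups compared, a replicate block, and each array left out. The adipocyte and hepatocyte marker means as model terms, and wild types without the C57Bl6 set, were added after the data were seen.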

Additional observations from a re-analysis of the deposited data

Results flagged for a closer look

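The response to E2 differed between each knockout line and its littermates by a test of the difference itself, here the knockout's difference from vehicle minus that of the littermates (limma, adjusted p under 0.05 over all genes). At 2 h 4 of the 30 genes passed in Ex3aERKO (9.43% of all genes): Mylip at 2.54, Abca1 at 2.00, Abcg1 at 1.02 and Fdft1 at -1.02. In ERaUtcKO 5 passed (13.8% of all genes): Mylip at 1.75, Fdft1 at -1.23, Abca1 at 1.01, Srebf2 at -0.88 and Sqle at -0.78. Both 2 h counts lie near the shares of all genes. At 24 h 20 genes passed in Ex3aERKO, the largest being Fdps at -5.19, Idi1 at -4.18, Hmgcs1 at -3.98, Sqle at -3.66, Cyp51 at -3.66 and Nsdhl at -2.76. In ERaUtcKO 23 passed, the largest being Fdps at -5.25, Idi1 at -4.39, Sqle at -3.70, Cyp51 at -3.58, Hmgcs1 at -3.45 and Nsdhl at -2.95. At 24 h 10.5% of all genes were negative and 6.34% positive in Ex3aERKO, and 15.5% and 17.3% in ERaUtcKO.

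The response to IGF1 at 24 h differed between ERaUtcKO mice and littermates for 4 genes (0.0498% of all genes): Sqle at -1.39, Nsdhl at -1.38, Fdft1 at -1.35 and Lss at -0.78. These littermates had the strongest mean response to IGF1 at 24 h among the wild-type sets. Among wild types, the 24 h IGF1 response differed between the 3 mouse sets for 11 genes and the 24 h E2 response for 8 (5.56% and 16.2% of all genes). Differences between the mice and between the arrays of the sets cannot be told apart there.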

How the results depend on the processing

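Of 287 counts of called genes recomputed under an alternative other than leaving out an array, over 31 comparisons, 274 stayed within 1.5 times the value reported and 13 did not. The former include the comparisons with 0 calls both as reported and under the alternative, which say little about stability. With only the groups compared in the model, the Ex3aERKO response to IGF1 had 2 calls at 2 h (13) and 8 at 24 h (14), the Ex3aERKO difference under vehicle had 0 (1), and the set difference at 24 h of IGF1 had 1 (11). Without the C57Bl6 set, wild types had 11 calls at 2 h of E2 (17) and 13 for E2 against IGF1 at 2 h (20). With the adipocyte term, the Ex3aERKO difference under vehicle had 3 calls (1) and the ERaUtcKO interaction at 2 h of E2 had 8 (5). The ERaUtcKO interaction at 24 h of IGF1 had 2 calls after quantile normalization and 0 with the hepatocyte term (4). The set difference at 24 h of E2 had 3 calls after quantile normalization, 5 with the replicate block and 4 with the hepatocyte term (8). The replicate block moved no other count by that much. Same-numbered arrays did not deviate together on average (mean correlations of -0.08, -0.0018 and -0.0089 in the C57Bl6, Ex3aERKO and ERaUtcKO sets). Single pairs ran from -0.59 to 0.50, from -0.29 to 0.41 and from -0.33 to 0.22. These values show no pairing by number on average and cannot exclude it for single arrays. Fewer arrays enter the model with only the groups compared or without the C57Bl6 set. The cause of the moved counts was not tested for any setting. Among single genes, Scd1 reversed with the adipocyte term, to 0.61 at 24 h of E2 against vehicle and 0.68 for 24 h against 2 h of E2 (reported as -0.60 and -0.83).

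Leaving out 1 array at a time gave these ranges of calls in wild types: 15 to 18 for E2 and 22 to 24 for IGF1 at 2 h, 26 to 28 for E2 and 23 to 25 for IGF1 at 24 h, 18 to 22 and 19 to 22 for E2 against IGF1 at 2 h and 24 h, 24 to 25 and 16 to 19 for 24 h against 2 h of E2 and IGF1, and 8 to 13 and 4 to 9 for the set differences at 24 h of IGF1 and E2. In Ex3aERKO they were 4 to 9 and 8 to 13 for IGF1 at 2 h and 24 h, 3 to 4 and 18 to 20 for the E2 interactions, and 0 to 1 under vehicle. In ERaUtcKO they were 10 to 13 and 18 to 22 for IGF1, 2 to 7 and 22 to 24 for the E2 interactions, and 0 to 1 and 0 to 6 for the IGF1 interactions. Where the report gives no called gene and no range stands here, there were 0 calls with each array left out.

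Precision is limited by 2 or 3 arrays a group and by groups of 2 from which an outlier had been dropped. The normalization is unknown, vehicle was collected at 24 h only, the route of IGF1 is not tied to mice, and marker genes of fat and liver varied between arrays of 1 group.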
